A study of Mus musculus with 2 samples.

Results

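The forkhead transcription factor genes were examined for binding of Dlx5 in a mouse T-cell lymphoma. The members were the protein-coding genes on chromosomes 1 to 19 of mm10 whose symbol begins with Fox, a letter from a to s and a number. This rule gave 41 of the 20665 autosomal protein-coding genes in the RefSeq table. By symbol, the 15 members named Foxo, Foxp, Foxn, Foxk or Foxj formed a lymphoid class and the other 26 a developmental class. These class names follow from the symbols alone. The lymphoid class holds Foxn1, a factor of thymic epithelium, and Foxj1, a factor of ciliated cells, while the developmental class holds Foxm1, a factor of dividing cells. Foxp3, Foxo4 and Foxr2 lie on the X chromosome and were not members.

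A Myc-Tag ChIP library and an input library made up the 2 samples, both from a T-cell lymphoma of Lck-Dlx5 mice. In these mice, the Lck promoter drives a Dlx5 transgene that carries a Myc-Tag, so the protein is made in T-lineage cells. The labels call both samples a primary tumor and give the strain as C57BL/6 for the Myc-Tag ChIP and C57BL/7 for the input. The methods name a cell line of such a lymphoma and an IgG control instead. Whether both libraries came from the same tumor is not stated, and no library from T cells that lack the transgene was analysed here. Each group has 1 library, so no difference between groups was tested, and the values carry no replicate error. There were 3477 Myc-Tag intervals and 28 input intervals, and every input interval was also a Myc-Tag interval. Each interval holds 1 summit, the position of its greatest height. The deposited heights are whole numbers whose normalization is not stated, and their median over all Myc-Tag summits was 16. The read depth behind them is unknown.

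Forkhead proteins bind DNA through a winged helix domain. FoxO factors act at the end of the insulin and phosphoinositide 3-kinase pathway. Akt phosphorylates them, which moves them out of the nucleus, and in T cells they control quiescence, homing and survival genes. FoxP factors act mostly as repressors, Foxp1 being required for the quiescence of naive T cells. Most other members pattern embryonic tissues and are silent in lymphocytes. Dlx5 is a homeodomain protein whose family is known to bind a TAATT core.

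Sequence is given here for the promoters at which an interval was called. The RefSeq promoter table for GRCm38.p6, the assembly known as mm10, held a window of 250 bases before to 50 after an annotated start for 26 of the 41 members. Foxm1 and Foxb1, developmental members with an interval, had no window. Intervals overlapped a window at Foxo1, Foxp4, Foxj3 and Foxp1, the last at an internal start, and all 4 are lymphoid members. The 250 bases before each of these starts are printed 5′ to 3′ on the strand of the gene. Foxj2, the paralog of Foxj3 without an interval, is shown for comparison. Capitals mark TAATT on either strand, written AATTA where it lies on the opposite one. GTAAACA, a forkhead core, was searched in the same way and was not found in these stretches. The stretches are Foxo1 at chr3:52268087-52268336 (+), Foxp4 at chr17:47924633-47924882 (-), Foxj3 at chr4:119539411-119539660 (+), Foxp1 at chr6:99028299-99028548 (-) and Foxj2 at chr6:122819934-122820183 (+).
Foxo1: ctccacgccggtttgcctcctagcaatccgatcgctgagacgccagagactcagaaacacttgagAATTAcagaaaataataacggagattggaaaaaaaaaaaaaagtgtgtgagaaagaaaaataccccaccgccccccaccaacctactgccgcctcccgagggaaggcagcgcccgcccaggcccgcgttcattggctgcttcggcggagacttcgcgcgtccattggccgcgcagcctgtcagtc
Foxp4: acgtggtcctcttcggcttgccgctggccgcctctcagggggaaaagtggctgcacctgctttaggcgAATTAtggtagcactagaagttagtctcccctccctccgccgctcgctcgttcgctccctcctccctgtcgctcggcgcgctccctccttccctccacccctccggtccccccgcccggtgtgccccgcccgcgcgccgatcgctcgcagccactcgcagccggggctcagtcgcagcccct
Foxj3: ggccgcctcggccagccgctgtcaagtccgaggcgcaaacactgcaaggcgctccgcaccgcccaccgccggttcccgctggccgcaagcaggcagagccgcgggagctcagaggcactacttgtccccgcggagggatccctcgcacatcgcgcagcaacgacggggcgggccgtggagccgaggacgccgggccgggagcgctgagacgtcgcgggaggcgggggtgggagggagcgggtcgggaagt
Foxp1: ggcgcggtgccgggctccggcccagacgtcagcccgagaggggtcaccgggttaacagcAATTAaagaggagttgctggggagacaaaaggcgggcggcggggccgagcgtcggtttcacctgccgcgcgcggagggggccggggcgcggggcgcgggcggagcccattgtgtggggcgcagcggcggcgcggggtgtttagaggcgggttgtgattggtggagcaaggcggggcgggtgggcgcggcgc
Foxj2: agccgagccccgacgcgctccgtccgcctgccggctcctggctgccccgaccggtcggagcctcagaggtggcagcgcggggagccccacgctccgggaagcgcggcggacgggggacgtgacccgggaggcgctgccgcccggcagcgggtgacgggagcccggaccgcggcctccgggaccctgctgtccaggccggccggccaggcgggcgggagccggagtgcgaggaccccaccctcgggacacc

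The Foxp4 and Foxj3 stretches lay wholly inside their intervals. At Foxo1 the last 95 bases were inside, from base 156 to base 250, and the AATTA lay before them. At Foxp1 the first 154 bases were inside, with the AATTA among them. Of these genes, only Foxj3 had its summit inside the printed stretch, which holds no TAATT. The summits at the starts of Foxo1 and Foxp4 lay after the start, and that of Foxp1 lay 342 bp before it, beyond the stretch. The share of G and C in the 4 stretches with an interval ran from 56% at Foxo1 to 74.4% at Foxj3, and Foxj2 without an interval was at 80.4%. Medians were taken over whole windows of 300 bases, which are longer than the printed stretches. The median of all windows was 57%, that of windows with an interval 63.3% and that of windows without one 56%. The whole Foxo1 window was at 61.3%. Over all 20085 windows of autosomal protein-coding genes, TAATT on either strand was present in 23.3%, and in 13.9% of the 2105 windows that an interval overlapped. Among the 30 forkhead windows, 7 held TAATT (23.3%). These were 5 of the 12 lymphoid windows (41.7%) and 2 of the 18 developmental ones (11.1%), and 3 of the 4 forkhead windows with an interval held it. GTAAACA was present in 3.04% of all windows and in 1 forkhead window, that of Foxa1. The windows that an interval overlapped had a median of 25 CpG dinucleotides, against 11 in those without. The lymphoid forkhead windows had a median of 32 CpG and the developmental ones 19. These counts of letters describe the windows and are not evidence of binding at a given site.

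Genes with at least 1 bp of an interval in the gene or within 10 kb of it are described as having a peak. Of the 41 forkhead genes, 8 had a peak (19.5%, 95% Wilson interval 10.2 to 34%). The share among all autosomal protein-coding genes was 20.1%, so the family as a whole stood at the background. The genes with a peak were Foxo1, Foxo3, Foxp1, Foxp4 and Foxj3 of the lymphoid class, and Foxm1, Foxe3 and Foxb1 of the developmental class. They were served by 11 separate intervals. In the lymphoid class 5 of 15 genes had a peak (33.3%, 15.2 to 58.3%), and in the developmental class 3 of 26 (11.5%, 4 to 29%). The intervals of both shares include the background and overlap each other. They cover counting error only.

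The classes also differ in gene width. The lymphoid members had a median width of 57.5 kb (4.8 to 597 kb) and the developmental members 3.24 kb (1.31 to 12.9 kb), while the median of all genes was 17.5 kb. Of the lymphoid members, 14 were wider than that median, and none of the developmental members was. Among all genes, 17.5% of those up to the median width and 22.7% of the wider ones had a peak. The corresponding shares were 11.1% of the 27 narrower forkhead genes and 35.7% of the 14 wider ones. Class and width therefore cannot be told apart in this family. Per Mb of window, the lymphoid genes held 3.34 intervals (8 in 2.40 Mb) and the developmental genes 4.93 (3 in 0.61 Mb). In these units the order of the classes was turned. The windows of all genes held 2.54 per Mb, those of genes up to the median width 6.37 and those of wider genes 2.2, so this density falls with width. The lymphoid value was above that of the wider genes, and the developmental value was below that of the narrower ones. These differences were not tested.

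A second measure was a summit within 1 kb of a gene end, which also moved with width. It was met by 10.1% of all genes up to the median width and 12.6% of the wider ones, and by 7.41% and 21.4% of the forkhead genes. By this measure, 5 of 41 forkhead genes (12.2%, 95% Wilson interval 5.32 to 25.5%) had a summit, against 11.3% of all genes. These were Foxo1, Foxp4 and Foxj3, or 20% of the lymphoid class, and Foxm1 and Foxe3, or 7.69% of the developmental class. Of the members with a promoter window, 4 of 26 (15.4%) had a window that an interval overlapped, against 11.2% of all genes with a window. All 4 were among the 10 lymphoid members with a window. Of the 16 developmental members with a window, 0 had an overlap, which allows a share of up to 18.8%. This count depends on the genes in the promoter table. Foxm1 and Foxb1, developmental members with a peak, have no window. The interval of Foxe3 begins 93 bp inside the gene, past the 50 bases that its window covers.

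**Figure D1:**
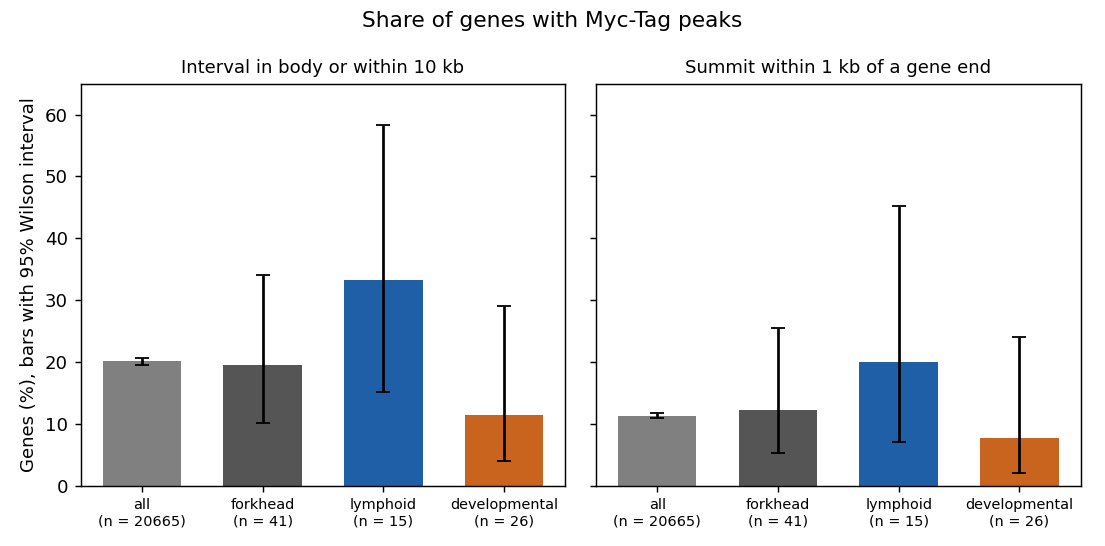
Bars give the percentage of genes with a Myc-Tag interval in the body or within 10 kb (left) or with a summit within 1 kb of a gene end (right), for all autosomal protein-coding genes, the forkhead genes and their classes, with 95% Wilson intervals and the number of genes under each bar. The forkhead bars, at 19.5% and 12.2%, stand near the bars of all genes, at 20.1% and 11.3%, and the error bars of both classes reach across them.

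Foxo1 is the main FoxO factor of T cells and controls genes for homing and interleukin 7 signaling. It spans 52268337 to 52350109 of chromosome 3 and had 2 intervals. The interval at its start, chr3:52268242-52269275, had its summit 143 bp inside the gene and a height of 12. The other interval, chr3:52262307-52262990, had its summit 5713 bp upstream of the start and a height of 22, the tallest of the 11. Only 476 of the 3477 Myc-Tag summits (13.7%) were higher. The upstream interval overlapped no annotated gene, and the next protein-coding gene end, that of Maml3, was 157305 bp from its summit. At Foxo1 the lower summit thus lay at the start and the higher one away from it.

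Foxo3, a FoxO factor that promotes expression of pro-apoptotic genes, lies on chromosome 10 from 42181845 to 42276695, on the minus strand. Its single interval, chr10:42277667-42278616, had a summit 1422 bp upstream of the start and a height of 16, equal to the median. The interval ended 972 bp short of the start and overlapped no gene. Foxo6, known mainly from the nervous system, had no interval, and its nearest summit was 319 kb away. Of the 3 autosomal FoxO genes, 2 therefore had a peak, both with a summit in upstream sequence.

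Foxp1 and Foxp4 each had 2 intervals. Foxp4 is expressed in T cells and in developing lung, and spans 47867133 to 47924632 of chromosome 17. The interval at its start, chr17:47924042-47925340, was 1299 bp wide, the widest of the 11, with a height of 14 and a summit 296 bp inside the gene. The interval at chr17:47873292-47874039, near the other end of the gene, was 748 bp wide, with a height of 19 and a summit 6499 bp inside that end. As at Foxo1, the interval at the start was the wider and the lower of the pair. Over the whole library, intervals with a summit within 1 kb of a gene end were also wider, with a median of 811 bp against 679 bp, but their median height was 16 against 15.

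Foxp1, with 597 kb the widest of the 41 genes, lies on chromosome 6 from 98925342 to 99522746. Neither of its summits was near an end of the gene. The summit of chr6:99028395-99028911, with a height of 12, lay 342 bp upstream of an annotated internal start at position 99028298, whose preceding bases are printed above. The other interval, chr6:99384890-99385753, had a height of 15 and lay 118733 bp upstream of the nearest annotated start, that at 99266515, and 137498 bp inside the gene. The start of Foxp1 farthest upstream in the promoter table, at 99520993, had no interval over its window. Foxp2, known mainly from the brain, is nearly as wide, at 541 kb, and had none, with the nearest summit 1293 kb away. Foxp1 thus had 2 intervals and Foxp2 none in windows of similar size. The windows of all genes wider than the median held 2.2 intervals per Mb. The difference between these single genes was not tested.

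Foxj3 was the only FoxJ gene with a peak. It lies on chromosome 4 from 119539661 to 119629119. The interval chr4:119539228-119539795 had a height of 16 and a summit 205 bp upstream of the start, inside the stretch printed above. The end of a neighboring gene, Frg2f1, was 687 bp from the same summit, so the interval could be assigned to either gene. Foxj1 and Foxj2 had no interval, with the nearest summits 243 kb and 18.3 kb away. The 4 FoxN genes and the 2 FoxK genes had no interval either. With 20.1% of all genes having a peak, so few genes cannot show a lower share. Foxn1, the factor whose loss causes the nude phenotype, which includes failure of the thymic epithelium, was 164 kb from the nearest summit. Foxn3, 374 kb wide, was 321 kb away, and the nearest of these 6 genes was Foxk1, at 34 kb.

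**Figure D2:**
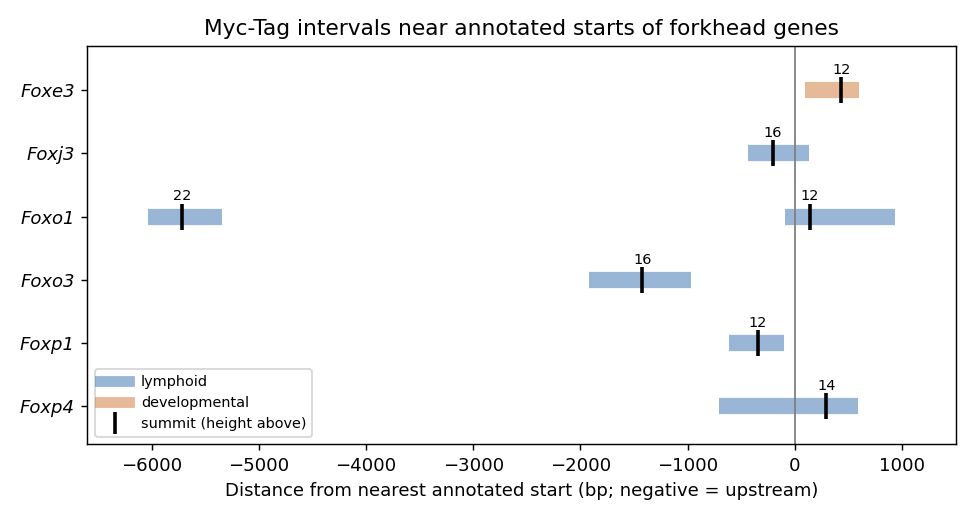
Each bar is a Myc-Tag interval within 10 kb of an annotated start of a forkhead gene, drawn by its distance from that start in bp on the strand of the gene, with negative values upstream. The tick is the summit and the number its height. An interval spans the start at Foxo1, Foxj3 and Foxp4. The taller Foxo1 interval, of height 22, and those at Foxo3 and Foxp1 (an internal start) lie upstream, and that at Foxe3 lies inside the gene. Foxm1 and Foxb1 have no start in the promoter table and are not drawn.

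Among the developmental members, Foxm1 is a driver of the expression of genes for mitosis. It lies on chromosome 6 from 128362994 to 128375886. Its interval, chr6:128362366-128363018, had a height of 12 and a summit 338 bp outside the gene. The same summit was inside the neighboring Rhno1, 255 bp from its end. Foxm1 was the only gene of the 8 that was not the protein-coding gene nearest to its summit.

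Foxe3, a factor of lens epithelium, lies on chromosome 4 from 114924443 to 114926067. Its interval, chr4:114925470-114925974, was the narrowest of the 11, at 505 bp. The height was 12 and the summit lay 435 bp inside the gene from its start. Foxb1, a factor of the developing diencephalon, lies on chromosome 9 from 69757710 to 69760940, and its interval, chr9:69759112-69760205, had a height of 16. The summit lay inside the gene, 1388 bp from the nearer end, and the next protein-coding gene end, that of Bnip2, was 229886 bp away. The peak at Foxb1 was therefore remote from other protein-coding genes, whereas that at Foxm1 was shared.

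The heights of the 11 forkhead intervals ranged from 12 to 22, with a median of 15. They were above the median of all summits in 2 intervals (Foxo1 upstream and Foxp4 near its far end), equal to it in 3 and below it in 6. The 4 intervals with a height of 12, at Foxo1, Foxp1, Foxm1 and Foxe3, were exceeded by 2829 of all summits (81.4%). None of the 11 was called in the input, which allows a share of up to 27.3%. However, of all 3001 Myc-Tag intervals with heights up to 22, only 1 was called in the input. The absence of input calls at the forkhead genes is therefore the rule at such heights.

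**Figure D3:**
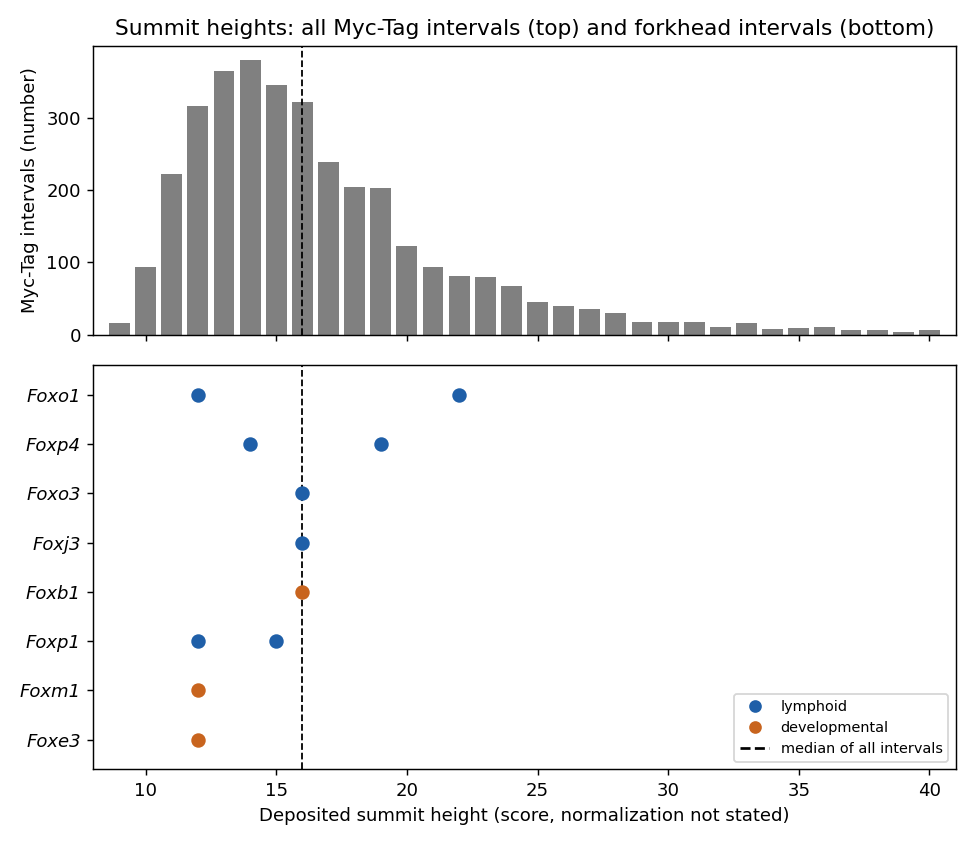
The upper panel counts Myc-Tag intervals by deposited summit height, up to 40 (the 53 higher ones are not drawn). The lower panel shows the 11 forkhead intervals by gene, at heights from 12 to 22, and the dashed line is the median of 16. The tallest forkhead summits are those of Foxo1 and Foxp4.

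No interval was called at 33 members, 10 lymphoid and 23 developmental. Among the latter were the genes of endoderm, mesoderm and neural crest development such as Foxa1, Foxa2, Foxc1, Foxc2, Foxd3 and Foxf1. Their nearest summits lay 16.7 kb (Foxd2) or more from the gene, with a median of 416 kb. For the 10 lymphoid members the range was 18.3 to 1293 kb, with a median of 203 kb. Of the 33, 6 had a summit within 50 kb, namely Foxd2, Foxj2, Foxa3, Foxk1, Foxr1 and Foxh1. This is near the background, since with 50 kb allowed 34.1% of forkhead genes and 35.1% of all genes had an interval. The median distances have no value for all genes beside them, so they cannot be read as long or short. The summit nearest to Foxd2 was that of its neighbor Foxe3. For a gene without an interval, binding was not detectable at the calling threshold, which is not given in the sources used here.

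**Figure D4:**
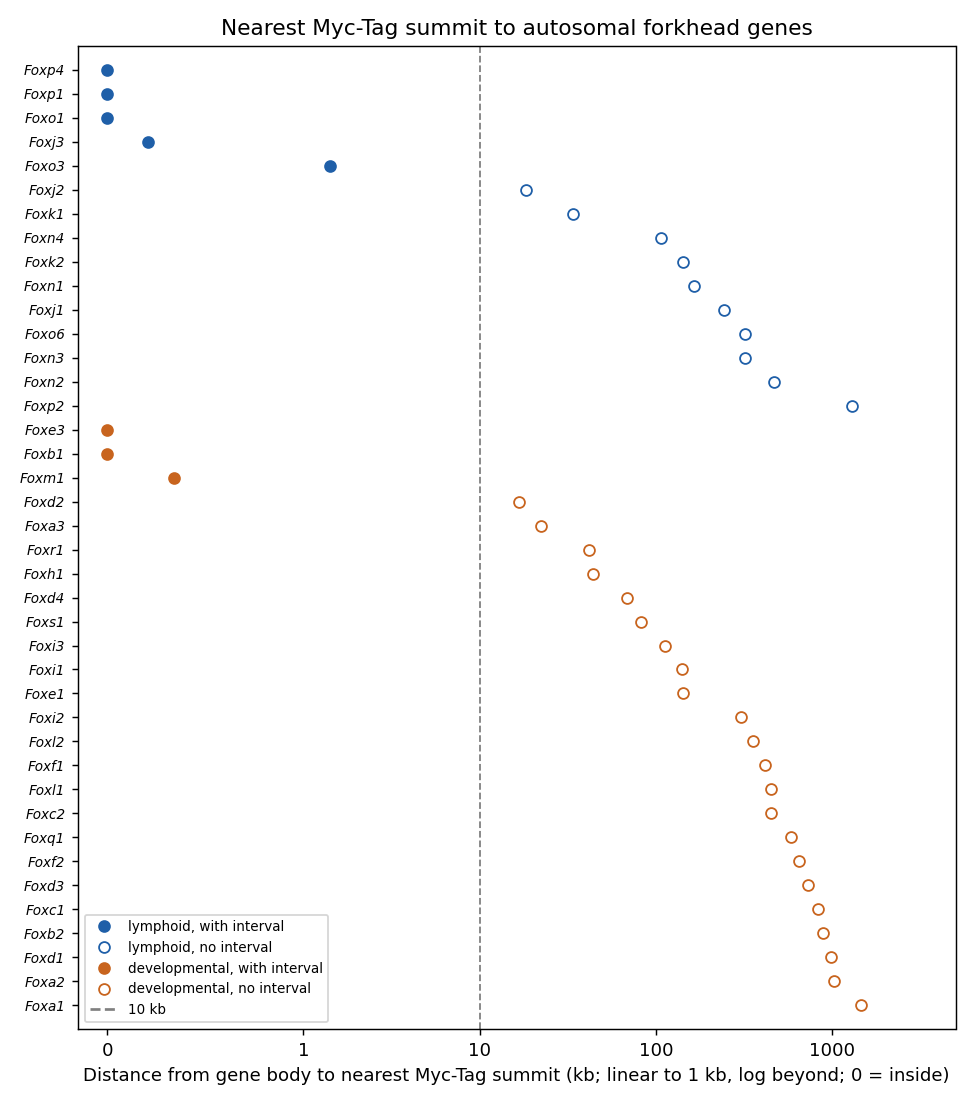
Each of 40 forkhead genes is placed by the distance in kb from its body to the nearest Myc-Tag summit, on an axis that is linear to 1 kb and logarithmic beyond. Filled points are genes with an interval in the body or within 10 kb. The 8 filled points all lie within 2 kb of the gene body, and the open points begin at 16.7 kb.

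Other genes of the forkhead pathways were counted by role. Of 88 autosomal genes on 6 lists, 28 (31.8%) had a peak, beside 20.1% of all genes. Summits lay no farther than 1 kb from an end at 18 of them (20.5%), beside 11.3% of all genes. The lists were chosen with earlier results of these data known and were not tested. They include Irs2, which the study singled out in this library. Among the FoxO targets of lymphocytes, 13 of 26 (50%) had a peak, 9 of them with a summit that close to an end. The tallest of the latter summits were those of Insr, the insulin receptor, with a height of 28 at 33 bp inside the gene, and Sod2, mitochondrial superoxide dismutase, with 24 at 97 bp inside. They were followed by Txnip, an inhibitor of glucose uptake, with 21 at 223 bp outside, and Ccng2, a cyclin of arrested cells, with 17 at 181 bp outside.

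Of the 14 upstream regulators of FoxO, 4 had a peak (28.6%). Among them, Pdpk1, the kinase that activates Akt, had a summit of height 16 at 176 bp outside its end. Pik3ca, the catalytic subunit of phosphoinositide 3-kinase, had one of 13 at 727 bp inside. Sgk1, a kinase related to Akt, had an interval of height 17 that was not near an end. None of the 3 Akt genes had a peak, but 3 genes are too few to set against the 20.1% of all genes. Of the 15 protein partners of FoxO, 5 had a peak (33.3%), with summits near an end at the acetyltransferase gene Ep300 and at the 14-3-3 genes Ywhaq, Ywhaz and Ywhab. The heights at these ends were 18, 18, 14 and 12. The other was Crebbp, with a height of 41. Ep300 and Ywhaz, and on other lists Fbxo32 and Hdac7, are the 4 pathway genes with a peak on chromosome 15, where 36.7% of the genes had a peak against 19.4% on the other autosomes. No forkhead gene with a peak is on that chromosome.

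Of 12 partners of FoxP and FoxK, 5 had a peak (41.7%), with summits near an end at Cbfb (height 14, 974 bp inside), a subunit of the Runx complexes, and Gatad2b (height 13, 563 bp inside), a subunit of the NuRD complex. The others were Hdac7, Runx1 and Sin3a. On the list of FoxM1 targets, 1 of 15 genes (6.67%) had a peak. The share was 20.1% among all genes and 17.5% among those up to the median width. With so few genes, a lower share cannot be read from this count. The FoxM1 target with a peak was Cdc25b, a mitotic phosphatase, with a height of 40, and it was named after its value was seen. No summit of this list lay that close to an end, which allows up to 20%. Of the 6 targets of Foxn1 in thymic epithelium, 0 had a peak, which allows up to 50%. The median widths were 75.4 kb for the upstream regulators of FoxO, 27.1 kb for its partners and 22.3 kb for its targets. They were 54.1 kb for the partners of FoxP and FoxK, 10.4 kb for the FoxM1 targets and 11.4 kb for the Foxn1 targets. Whether width has a part in these counts was not tested.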

How the data were processed

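ChIP-seq was carried out and analyzed by Active Motif on an Illumina GA II platform, and peaks were called by MACS p-value, per the paper's methods. The submitters' processing notes name BWA and the build mm9. The browser view in the paper is marked mm10, and 58.4% of the 3477 summits lay within 1 kb of an end of a protein-coding gene of GRCm38, against 6.93% and 6.53% after moving every summit by 100 kb up or down, so the coordinates were read as mm10. The MACS settings and the control used for calling are not given in the sources used here. The authors deposited 5 tracks in 1 table. The deposited value of each summit is a score, its height, with no stated normalization. Interval and active region tracks hold names instead.

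Each summit was joined to its interval, and since 3329 summit positions were multiples of 16 bp, they are not exact to the base. Interval starts are counted from 1. Genes came from RefSeq (GRCm38.p6), whose gene table has no strand. Starts and strands came from the promoter table, which matched 26 of the 41 forkhead genes. The members, the lists of pathway genes and the rules were chosen with earlier results of these data known. Every forkhead gene with an interval was named, as were up to 4 genes per pathway list with the tallest summit within 1 kb of an end. Single values of 2 genes, 1 a member and 1 on a pathway list, are not reported here, although the counts include them. Genes outside this rule were named after their values were seen. Wilson intervals (95%) and the limits given for a count of 0 cover counting error only, and read depth is unknown. With 1 library per group, no test was made. The software was matplotlib 3.10.9, scipy 1.17.1, pandas 2.3.3 and numpy 2.4.6 under Python 3.11.15, and the counting of windows was tested on simulated data. Motifs were searched in promoter windows only, as no genome sequence was used here.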

Additional observations from a re-analysis of the deposited data

How the results depend on the processing

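Of 49 alternatives, 36 gave a count within 1.5 times that reported and 13 did not. Those that left out chromosome 15 were chosen after seeing the data. Allowing 50 kb in place of 10 kb gave 14 forkhead genes in place of 8 (34.1%, background 35.1%), 7 developmental genes in place of 3, and 46 pathway genes in place of 28 (52.3%). Keeping summits at or above the median height left 5 forkhead genes (12.2%, background 11.2%), 1 of them developmental (Foxb1), with 5 intervals in place of 11. It left 16 pathway genes (18.2%), and 1 forkhead gene, Foxj3, in place of 5 with a summit within 1 kb of an end (2.44%, background 6.01%). Keeping heights of at least 19, the upper quartile, left 2 forkhead genes, Foxo1 and Foxp4 (4.88%, background 6.4%), with 2 intervals, and 10 pathway genes (11.4%). Its 0 of 26 developmental genes allows up to 11.5%, which includes the background. Smaller counts follow from the construction of the height alternatives and larger ones from that of the wider window. With the annotated start in place of either gene end, 5 genes had a summit within 1 kb, Foxp1 among them. Only 26 of the 41 genes have such a start, and Foxm1 has none and could not be counted. Without chromosome 15, 8 of 40 forkhead genes (20%) and 24 of 82 pathway genes (29.3%) had a peak, beside a background of 19.4%.

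No paired analysis was possible because a single library stands for either group, and no replicate was left out for the same reason. The motif search in intervals was not run, since no genome sequence was used here. Depth limits every result on absence.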

Other observations

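The forkhead genes of chromosome X had no peak. Foxp3, the factor of regulatory T cells, was 304 kb from the nearest summit, Foxo4 was 379 kb away and Foxr2 881 kb. Chromosome X held 23 Myc-Tag intervals in all, and 21 of its 966 protein-coding genes (2.17%) had one in the body or within 10 kb.

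Several developmental forkhead genes lie in clusters. Foxf1, Foxc2 and Foxl1 lie within 46.3 kb of chromosome 8, and Foxq1, Foxf2 and Foxc1 within 252 kb of chromosome 13, and neither cluster had an interval at any of its 3 genes. In the pair of Foxd2 and Foxe3 on chromosome 4, which spans 19.8 kb, only Foxe3 had one.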
